A study of Mus musculus with 4 samples.

Results

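The genes of the constitutive proteasome were followed across the cells of 4 mouse mammary tumours. Members were all features whose symbol starts with Psm, a letter from a to f and a number, leaving out the immunoproteasome genes Psmb8, Psmb9 and Psmb10. The rule took 43 of the 31054 features in the tables, and it used no measured value. Transcripts were counted as UMIs (unique molecular identifiers) in cells of dissociated tumours, captured with the 10x Genomics 3' v2 kit. T11-Apobec tumour cells were grown in females whose strain is given as Balbc, and KPB25Luv tumour cells in FVB/NJ females. Both were injected into the number 4 mammary gland, and mice were assigned at random to treatment once the tumour reached a diameter of 5 mm.

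The 4 groups were treated T11-Apobec, untreated T11-Apobec, treated KPB25Luv and untreated KPB25Luv, with 1 library each. Treated mice were given anti-CTLA4 (100 µg) together with anti-PD1 (10 mg/kg) on a biweekly schedule, and their tumours were collected after 7 days of therapy. Untreated mice received no therapy. How many animals gave each library is not stated in the labels, nor is their age. No group has a replicate, so treated and untreated libraries of a model were compared without a test, and intervals on those ratios cover counting error only. Cell classes were tested against each other with the 4 libraries, which differ in model and therapy, as the repeated unit. In pooled cells of a class, fewer cells that express a gene and less RNA per cell cannot be told apart.

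Libraries held between 5509 and 11304 cell barcodes and between 30369476 and 98475778 UMIs, and between 5273 and 10321 cells passed the filters. Pairs of libraries shared between 34 and 125 barcodes, at most 1.85% of either. Cells were placed in classes by fixed marker genes. Tumour cells numbered 734 in treated and 5528 in untreated T11-Apobec, and 58 in treated and 2981 in untreated KPB25Luv. There were 2946 T cells in treated and 336 in untreated T11-Apobec, and 3954 in treated and 1111 in untreated KPB25Luv. Plasma cells reached 31 and 50 in the treated T11-Apobec and KPB25Luv libraries, with 1 and 0 in the untreated ones. Between 115 and 683 cells per library met the markers of more than 1 class and were left out, and no doublet caller was run. T11-Apobec tumour cells were set by mesenchymal markers, which summed to 2972 CPM (UMIs scaled to the total of the summed cells) in treated and 4210 CPM in untreated cells. KPB25Luv tumour cells were set by epithelial markers, at 6247 CPM in treated and 4719 CPM in untreated cells, and these markers cannot tell tumour cells from normal mammary epithelium.

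The proteasome is the large protease that degrades proteins marked with ubiquitin. Its 20S barrel has outer rings of alpha subunits and inner rings of beta subunits, of which Psmb5, Psmb6 and Psmb7 carry the cutting sites. A 19S cap of ATPases (Psmc genes) and non-ATPases (Psmd genes) binds ubiquitinated proteins, unfolds them and feeds them into the barrel. Interferon gamma induces Psmb8, Psmb9 and Psmb10, which take the place of Psmb5, Psmb6 and Psmb7 in newly built barrels, and also Psme1 and Psme2, which form the PA28 cap that shapes the peptides shown to T cells.

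Of the 43 members, 31 encode the core particle: 7 alpha and 7 beta subunits of the 20S barrel, and 6 ATPases and 11 non-ATPases of the 19S cap. The rest are the 19S assembly chaperones Psmd5, Psmd9 and Psmd10, the PA28 activators Psme1, Psme2 and Psme3, the activator PA200 (Psme4), the inhibitor Psmf1, and the tissue-restricted barrel subunits Psma8 of the testis and Psmb11 of the thymic cortex. The symbol pattern also took Psmc3ip, a recombination factor that is no proteasome subunit, and Psme2b. Psme2b is a near-copy of Psme2, and reads that match both may be lost or misplaced. The values of Psme2b are therefore uncertain, and those of Psme2 may also be touched. Psmb11 had 0 UMIs over all 21 sums of a library and class with at least 25 cells. Psma8 had 39 UMIs in all, with 1.47 CPM in treated and 1.61 CPM in untreated T11-Apobec myeloid cells and 1.63 CPM in untreated KPB25Luv myeloid cells. Each of the 31 core genes reached 10 UMIs in at least 18 of the 21 sums, and Psma7, an alpha subunit, had the most UMIs at 281614. Because UMIs were counted at the 3' end without a length scale, levels are compared between cells and not between genes.

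Promoter sequences from RefSeq on GRCm38.p6, 300 bases around the start, were found for 36 of the 43 members and 25 of the 31 core genes. Psme1 and Psme2 are shown because they differed between treated and untreated cells, Psmb5 because it followed the rest of the core most closely, and Psmd13 because it followed it least. Capitals mark matches to the motifs searched on both strands: the interferon-stimulated response element (GAAA and again GAAA, with a pair of any letters between) in Psme1, TGANNNNGC (antioxidant response element core) in Psme2 and Psmb5, and CCGGAAG (ETS) followed directly by TGANNNNGC in Psmd13. Psme2 has 2 RefSeq entries, of which 1 is shown.
Psme1, chr14:55578244-55578543 (+ strand): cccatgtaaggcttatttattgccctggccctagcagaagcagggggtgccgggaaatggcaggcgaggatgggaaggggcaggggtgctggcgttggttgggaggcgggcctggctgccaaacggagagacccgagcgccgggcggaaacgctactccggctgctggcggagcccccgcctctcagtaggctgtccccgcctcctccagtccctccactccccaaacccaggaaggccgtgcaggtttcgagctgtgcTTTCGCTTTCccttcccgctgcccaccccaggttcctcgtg
Psme2, chr14:55591052-55591351 (- strand): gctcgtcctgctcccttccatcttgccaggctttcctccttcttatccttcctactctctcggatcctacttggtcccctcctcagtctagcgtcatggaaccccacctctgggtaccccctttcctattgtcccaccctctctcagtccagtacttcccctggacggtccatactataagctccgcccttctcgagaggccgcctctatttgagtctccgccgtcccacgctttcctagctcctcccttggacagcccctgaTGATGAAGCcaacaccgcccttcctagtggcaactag
Psmb5, chr14:54617946-54618245 (- strand): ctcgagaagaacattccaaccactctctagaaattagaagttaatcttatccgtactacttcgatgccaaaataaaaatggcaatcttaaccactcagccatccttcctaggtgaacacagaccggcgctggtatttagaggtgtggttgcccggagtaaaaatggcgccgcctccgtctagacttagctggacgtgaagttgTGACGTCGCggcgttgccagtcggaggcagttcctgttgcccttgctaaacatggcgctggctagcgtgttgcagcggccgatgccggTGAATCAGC
Psmd13, chr7:140882144-140882443 (+ strand): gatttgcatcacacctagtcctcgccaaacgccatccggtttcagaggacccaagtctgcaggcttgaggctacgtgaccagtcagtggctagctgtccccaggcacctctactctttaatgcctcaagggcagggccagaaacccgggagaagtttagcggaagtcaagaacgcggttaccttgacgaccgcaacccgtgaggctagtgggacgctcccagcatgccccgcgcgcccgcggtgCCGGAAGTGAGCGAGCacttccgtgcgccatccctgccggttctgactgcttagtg

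CCGGAAG stood in 9 of 14 promoters of 19S genes (64.3%) and in 1 of 11 of 20S genes, that of Psma6. It stood in 9.93% of the 27025 genes in the table and in 23.4% of the 6072 genes with at least 10 CPM in these data. TGANNNNGC stood in 14 of 25 core promoters, against 45.0% of all genes and 48.6% of the expressed ones, and the NF-Y box CCAAT in 10 of 25, against 41.1% and 42.3%. The interferon-stimulated response element stood in 2 of 25 core promoters, those of Psmb3 and Psmd4, against 3.99% of all genes and 4.17% of the expressed ones. TTCNNNGAA, the gamma-activated site, stood in 1 of 25, that of Psmd2, against 9.55% and 8.35%. These are matches of letters in a window of 300 bases, not measured binding sites. In Psme1 the match lies on the opposite strand, just after the start.

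On plain CPM, tumour cells had the highest core proteasome level of the classes in each library. Summed over the 31 core subunits, tumour cells held 7691 CPM in treated and 7825 CPM in untreated T11-Apobec, and 11771 CPM in treated and 12314 CPM in untreated KPB25Luv. The KPB25Luv tumour cells stood above the T11-Apobec tumour cells in both libraries. Psma7 alone made up a large part of that gap. It held 2004 and 2521 CPM in treated and untreated KPB25Luv tumour cells, against 688 and 681 CPM in those of T11-Apobec. In tumour over myeloid cells the median log2 ratio of the core subunits was 0.17 in treated and 0.31 in untreated T11-Apobec. Over all features it was 0.31 in both. In KPB25Luv the core median was 0.50 in treated and 0.55 in untreated cells, beside 0.67 and 0.34 over all features. T cells held 5965, 6287, 6716 and 6720 CPM in the same order of libraries, and myeloid cells 6227, 5873, 6647 and 6848 CPM, so the ranges of these classes overlapped. B cells were lower, at 4712, 4276, 5644 and 5413 CPM, and in each library they lay below T cells. Plasma cells held 5255 CPM in treated T11-Apobec and 5302 CPM in treated KPB25Luv. Immunoglobulin genes took 37.0% and 33.7% of the UMIs of these plasma cells. With immunoglobulin genes left out of the totals, the core came to 8347 and 8001 CPM in plasma cells, against 4793 and 5729 CPM in B cells of the same libraries. On that scale plasma cells of treated T11-Apobec stood above its tumour cells, at 7691 CPM. Neutrophils held 2245 CPM in treated and 2377 CPM in untreated T11-Apobec and 4816 CPM in untreated KPB25Luv, from cells with medians of 872, 671 and 974 UMIs. The median tumour cell gave 0.71% to 1.22% of its UMIs to the core, against 0.54% to 0.62% in T cells and 0.42% to 0.52% in B cells.

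**Figure D1:**
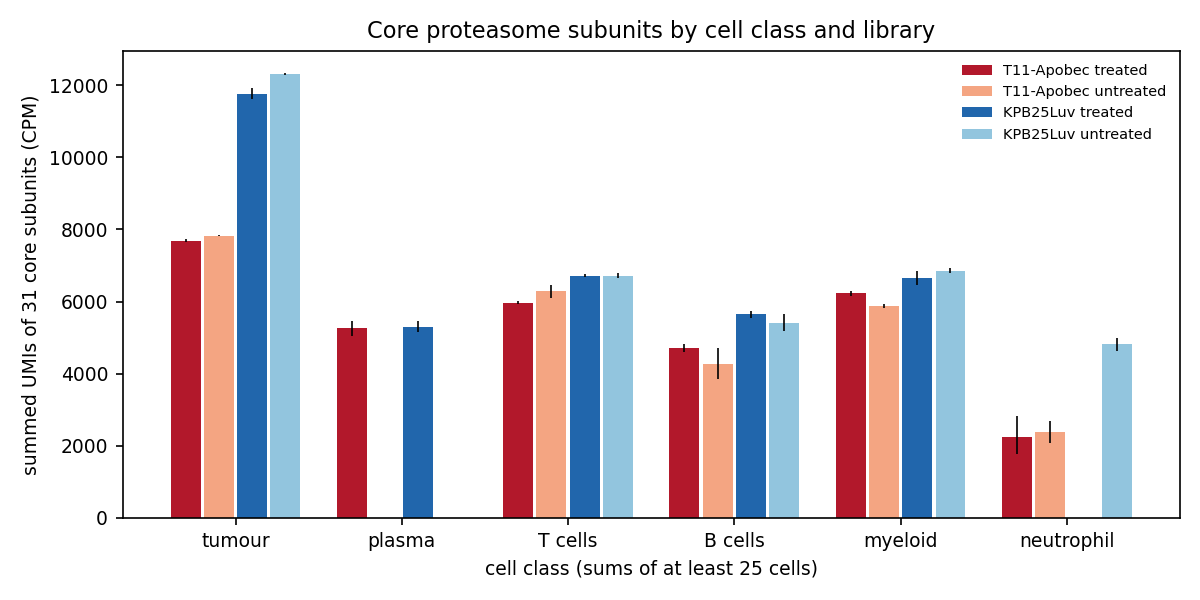
Summed CPM of the 31 core subunits (vertical axis) by cell class (horizontal axis) and library (colours), with bars from 0 and exact Poisson 95% intervals that cover counting error only. Tumour cells of KPB25Luv stand highest, at 11771 CPM in treated and 12314 CPM in untreated cells, and neutrophils of T11-Apobec lowest.

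The log2 ratio of summed 20S over summed 19S UMIs lay between 0.93 and 1.5 over the 21 sums. Alpha over beta subunits lay between −0.30 and 0.34 on the same scale, and ATPases over non-ATPases between −1.63 and −0.75. The lowest ATPase ratio was in treated KPB25Luv tumour cells and the highest in treated T11-Apobec plasma cells. Over the 19 sums of at least 50 cells, each core subunit was correlated with the sum of the others on log2 CPM. The sums share libraries and total depth, so the coefficients are descriptions. Psmb5, the chymotrypsin-like catalytic subunit, was closest (Pearson r = 0.94), followed by Psma4 and Psmb7 (r = 0.93 each). Psmd13, a lid subunit, was farthest (r = 0.34), with Psmc3, an ATPase, next (r = 0.55). Of the genes outside the core, Psme1 had r = 0.40 and Psme2 r = 0.73.

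Psmd13 was low in the tumour cells of 1 model. It stood at 40.8 CPM in treated and 54.5 CPM in untreated T11-Apobec tumour cells, against 158 CPM in treated and 138 CPM in untreated KPB25Luv tumour cells. T cells held 115 CPM in treated and 109 CPM in untreated T11-Apobec, and 139 CPM in treated and 115 CPM in untreated KPB25Luv, so the T11-Apobec tumour cells lay below the 4 T cell sums. Psma7 also differed between the models, at 688 and 681 CPM in treated and untreated T11-Apobec tumour cells and 2004 and 2521 CPM in those of KPB25Luv. So did Psma1, with 157 and 151 CPM in treated and untreated T11-Apobec tumour cells and 466 and 349 CPM in those of KPB25Luv.

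**Figure D2:**
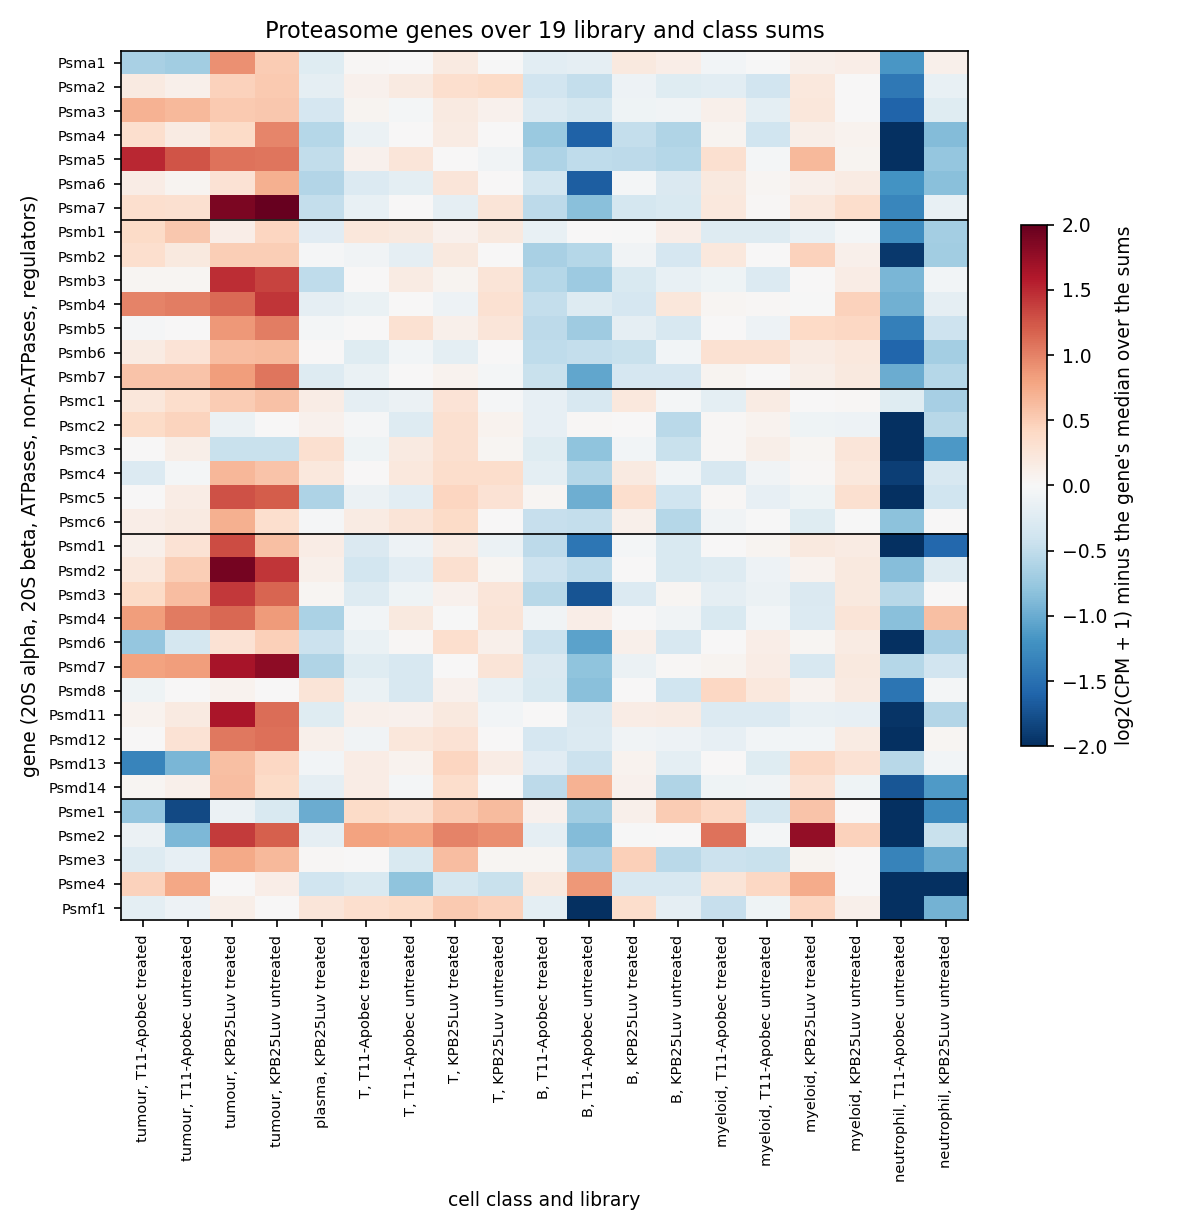
Colour gives log2(CPM + 1) minus the gene's median over the 19 sums of at least 50 cells, for the 31 core genes and Psme1, Psme2, Psme3, Psme4 and Psmf1 (rows) by cell class and library (columns). Most core genes are above their median in tumour cells, Psmd13 is below it in both T11-Apobec tumour columns, and untreated T11-Apobec neutrophils are lowest for most core genes.

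Among the genes outside the module, those whose log2 CPM followed the summed core most closely over the 19 sums were Ybx3 (r = 0.97), Cops6, a subunit of the COP9 signalosome (r = 0.96), and Cfdp1, Eif6, Ndufv1, Edf1, Gatad1, Ndufab1, Usp10 and Gins2 (r between 0.93 and 0.94). They were the 10 closest of 7606 genes with a mean of at least 10 CPM.

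Tumour cells were set against T cells of the same libraries. Of the 31 core subunits, 12 were higher in tumour cells and 0 lower in edgeR's quasi-likelihood test with Benjamini-Hochberg adjustment over all 14018 features tested. In the same test 26.9% of all features were higher and 20.1% lower. The core median was a log2 fold change of 0.36, against 0.12 over all features. Unadjusted, 15 of the 31 had p below 0.05, and DESeq2 called 18 higher and 0 lower. Shares over all features were taken for edgeR's adjusted calls only, here and in the comparisons below. The unadjusted and DESeq2 counts therefore have no such share beside them and cannot be set against edgeR's. By part, 2 of 7 alpha subunits, 4 of 7 beta subunits, 0 of 6 ATPases and 6 of 11 non-ATPases were higher, and no ATPase reached an unadjusted p of 0.05.

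Psmd7, the lid partner of the deubiquitinase Psmd14, stood at 236 and 241 CPM in treated and untreated T11-Apobec tumour cells and at 424 and 469 CPM in those of KPB25Luv. T cells held 113, 108, 134 and 160 CPM, below each tumour sum, and the log2 fold change was 1.25 ± 0.20 (SE; edgeR, adjusted p = 0.00021). Psma5, an alpha subunit, stood at 536, 448, 397 and 394 CPM in tumour cells, against 198, 222, 187 and 177 CPM in T cells, without overlap. Its log2 fold change was 1.08 ± 0.20 (SE; edgeR, adjusted p = 0.00062). Psma7 reached 1.16 ± 0.27 (SE; edgeR, adjusted p = 0.0031), and the beta subunit Psmb4 1.02 ± 0.14 (SE; edgeR, adjusted p = 6.1e-05). The other subunits that rose were Psmb3, Psmb6 and Psmb7 in the beta rings, the base scaffolds Psmd1 and Psmd2, and the non-ATPases Psmd3, Psmd4 and Psmd11. Lowest were Psmd13 at −0.57, Psmc3 at −0.38 and Psmd6 at −0.27, none of which passed the test. With T11-Apobec tumour cells alone against all T cells, Psmd13 was lower by the test, at −1.15 ± 0.21 (SE; edgeR, adjusted p = 0.00060), as was Psma1, and 8 core subunits were higher, against 25.5% of all features higher and 20.7% lower. With KPB25Luv tumour cells alone, 13 were higher (25.4% of all features; 20% were lower) and Psmc3 was lower, at −0.86 ± 0.22 (SE; edgeR, adjusted p = 0.0063).

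Median UMIs per cell were 25566 and 12671 in treated and untreated T11-Apobec tumour cells and 25569 and 22560 in those of KPB25Luv, against 3721, 1766, 4066 and 3770 in T cells, and the part of this depth in the result was not tested. Without untreated KPB25Luv, 7 core subunits were higher and 1 lower.

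Psme1 was lower in tumour than in T cells, at a log2 fold change of −1.34 ± 0.22 (SE; edgeR, adjusted p = 0.00024). It held 195 and 95.2 CPM in treated and untreated T11-Apobec tumour cells and 306 and 271 CPM in those of KPB25Luv, against 434, 418, 482 and 519 CPM in T cells. The groups did not overlap. Psme2 had −0.57 ± 0.30 (SE) and did not pass the test (edgeR, adjusted p = 0.14), with KPB25Luv tumour cells at 792 and 686 CPM above and T11-Apobec tumour cells at 275 and 159 CPM below the T cells at 508 to 597 CPM. Of the immunoproteasome genes, Psmb8 and Psmb9 were lower in tumour cells, at −1.93 and −1.98, and Psmb10 did not pass. Psme4, the PA200 activator, was higher in tumour than in T cells at 0.70 ± 0.27 (SE; edgeR, adjusted p = 0.047). Psme3, the nuclear PA28 activator, and Psmf1 did not pass, at 0.05 and −0.58.

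Other genes of the pathway moved in part. Of 5 chaperones that assemble the barrel, 3 were higher in tumour cells (Psmg2, Psmg3 and Psmg4) and 0 lower. Adrm1, a ubiquitin receptor of the cap, was higher at 0.99, the deubiquitinase Usp14 at 0.66, and the ubiquitin shuttles Ubqln1 at 0.59 and Rad23b at 0.93 (edgeR). Of 5 regulators of proteasome genes, Nfe2l1, the transcription factor that raises proteasome genes when the proteasome is blocked, was higher, at 1.28 ± 0.25 (SE; edgeR, adjusted p = 0.00095). Ngly1, the glycanase that processes Nfe2l1, was lower at −1.80 ± 0.22 (SE; edgeR, adjusted p = 2.6e-05). Rps27a, which encodes ubiquitin fused to a ribosomal protein, was lower at −0.60 (edgeR).

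**Figure D3:**
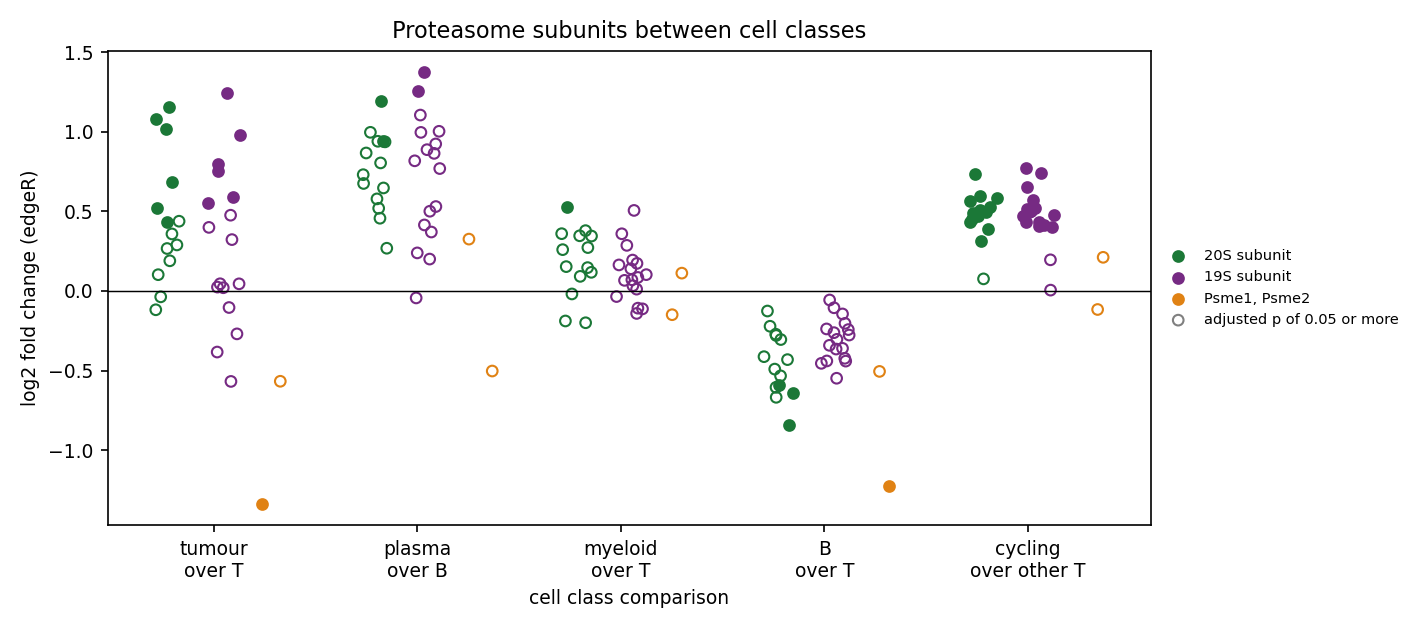
The log2 fold change from edgeR (vertical axis) of each core subunit and of Psme1 and Psme2 (points, coloured by part) in 5 comparisons of cell classes (horizontal axis), with filled points for an adjusted p below 0.05. Psme1 lies at −1.34 in tumour over T cells, below each core subunit, and 28 of 31 core subunits are filled in cycling over other T cells.

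Plasma cells, which secrete antibody, were set against B cells. Only the treated KPB25Luv library held 50 plasma cells, so the test took the spread from the other classes, and that lone sum is assumed to vary like them. Of the 31 core subunits, 4 were higher and 0 lower in plasma cells (edgeR), against 4.29% and 2.24% of all features, and 19 had an unadjusted p below 0.05. DESeq2 called 14 higher and 0 lower. The core median was 0.80, against −0.25 over all features. The 4 were Psmc3, at 1.37 ± 0.37 (SE; edgeR, adjusted p = 0.043), Psmd8, a lid subunit, at 1.26 ± 0.31 (SE; edgeR, adjusted p = 0.025), and the beta subunits Psmb6 and Psmb4. Lowest were Psmc5 at −0.04, Psmd4 at 0.20 and Psmd11 at 0.24. The size rested on the scaling. With plain totals as library sizes, 0 core subunits passed and the median was 0.01. On plain CPM the summed core had a log2 ratio of plasma over B cells of 0.16 (95% interval 0.09 to 0.22) in treated T11-Apobec and −0.09 (−0.14 to −0.04) in treated KPB25Luv. With sums of at least 25 cells, which added the plasma cells of treated T11-Apobec, 15 core subunits were higher, and without immunoglobulin genes 1 was.

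Beside them, 8 of 8 secretory genes were higher in plasma cells, with a median of 3.61. They included Edem1 at 5.93 and Sel1l at 3.45, which act in the disposal of misfolded proteins from the endoplasmic reticulum. Vcp, the ATPase that extracts such proteins, was higher at 1.83 ± 0.24 (SE; edgeR, adjusted p = 0.00036), and Ddi2, the protease that activates Nfe2l1, at 1.59 ± 0.39 (SE; edgeR, adjusted p = 0.025). On plain CPM, Psme1 held 137 CPM in plasma cells, against 354 CPM in B cells of treated T11-Apobec, and 167 CPM in plasma cells, against 359 CPM in B cells of treated KPB25Luv. Its edgeR log2 fold change of −0.50 ± 0.38 (SE) did not pass the test.

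Myeloid cells and B cells were each set against the same T cells. In myeloid cells, 1 of 31 core subunits was higher and 0 lower (edgeR), against 17.8% and 13.5% of all features. It was Psmb6, which carries the caspase-like site, at 0.53 ± 0.15 (SE; edgeR, adjusted p = 0.016), and 3 of 31 had an unadjusted p below 0.05. DESeq2 called 7 higher and 0 lower. With edgeR 0 were higher with doubled marker thresholds, and 0 without treated or without untreated T11-Apobec. With plain totals 0 were higher and 2 lower, and the median log2 fold change was −0.0087 in place of 0.14. Psmb6 held 373 and 373 CPM in treated and untreated T11-Apobec myeloid cells and 338 and 353 CPM in those of KPB25Luv, against 257, 292, 265 and 303 CPM in T cells, without overlap. Psme4 was higher in myeloid cells at 0.90 ± 0.28 (SE; edgeR, adjusted p = 0.024). Of the regulators, Nfe2l2 at 2.46 and Ddi2 at 1.73 were higher and Ngly1 was lower at −1.32 (edgeR).

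In B cells, 0 of 31 core subunits were higher and 3 lower than in T cells (edgeR), against 4.91% and 5.86% of all features. The 3 were the alpha subunits Psma4, at −0.84 ± 0.22 (SE; edgeR, adjusted p = 0.024), and Psma2, at −0.59 ± 0.15 (SE; edgeR, adjusted p = 0.024), and Psmb5, at −0.64 ± 0.18 (SE; edgeR, adjusted p = 0.039). Psma4 held 160 and 87.0 CPM in treated and untreated T11-Apobec B cells and 193 and 178 CPM in those of KPB25Luv, against 250, 271, 302 and 270 CPM in T cells. The 31 estimates were all below 0, with a median of −0.36, against −0.16 over all features, and 9 had an unadjusted p below 0.05. DESeq2 called 8 lower and 0 higher. The edgeR count fell to 0 without treated T11-Apobec, without untreated T11-Apobec or without untreated KPB25Luv. Psme2 was lower in B cells at −1.23 ± 0.32 (SE; edgeR, adjusted p = 0.023). It held 262, 163, 297 and 298 CPM in B cells, against 520, 508, 597 and 568 CPM in T cells, without overlap. Psme1 had −0.51 ± 0.22 (SE) and did not pass (edgeR, adjusted p = 0.18).

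T cells with at least 2 UMIs of 7 cell cycle genes (Mki67, Top2a, Birc5, Cdk1, Ccnb1, Ube2c and Tpx2) were set against the other T cells of their library, in the 3 libraries with at least 50 such cells. Of the 31 core subunits, 28 were higher and 0 lower in cycling T cells (edgeR), against 18.7% and 17.1% of all 10552 features tested. DESeq2 called 27 higher and 0 lower. The core median was 0.49, against −0.05 over all features. The summed core held 6747 CPM in cycling T cells, against 5410 CPM in other T cells of treated T11-Apobec. It held 8146 CPM in cycling T cells, against 5409 CPM in other T cells of treated KPB25Luv, and 7353 against 6037 CPM in untreated KPB25Luv. Cycling T cells were also the deeper cells, with medians of 8161, 11384.5 and 6481.5 UMIs, against 3075, 3406 and 2698 UMIs in the other T cells of the same libraries. A comparison added after the data were seen took T cells of 3000 to 8000 UMIs only, in sums of at least 25 cells from 4 libraries. There 3 of the 31 were higher and 0 lower, and the median was 0.21. The band left fewer cells in each sum, and no share or median over all features was taken within it. The part of this loss of cells in the lower count was not tested. Within that band the summed core was still 6431 CPM in cycling T cells, against 5361 CPM in other T cells of treated T11-Apobec, 6501 against 5348 CPM in treated KPB25Luv and 6760 against 5969 CPM in untreated KPB25Luv. In untreated T11-Apobec it was 7323 CPM in 28 cycling and 6780 CPM in 26 other T cells. Median depth still differed inside the band, at 6157 UMIs in cycling and 4342.5 UMIs in other T cells of treated T11-Apobec, for example. Without treated KPB25Luv, 17 were higher at any depth.

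All 7 alpha subunits, 6 of 7 beta subunits, 6 of 6 ATPases and 9 of 11 non-ATPases were called. The base scaffold Psmd1 had 0.77 ± 0.14 (SE; edgeR, adjusted p = 0.0036), Psmd13 0.74 ± 0.11 (SE; edgeR, adjusted p = 0.0015), and Psmb7, which carries the trypsin-like site, 0.73 ± 0.11 (SE; edgeR, adjusted p = 0.0017). Psmd4, Psmb1 and Psmd11 did not pass, at 0.005, 0.08 and 0.20. Psme3 was higher at 0.59 ± 0.12 (SE; edgeR, adjusted p = 0.0057), as were the chaperone Psmd9 at 0.38 and Psmc3ip at 0.99. Psme1 at −0.12 and Psme2 at 0.21 did not pass, and the near-copy Psme2b was lower at −0.61. Of the 5 barrel assembly chaperones, 4 were higher (Psmg1, Psmg2, Psmg3 and Pomp). The deubiquitinase Uchl5 was higher at 1.01 ± 0.11 (SE; edgeR, adjusted p = 0.00029). The interferon-gamma response genes Iigp1 at −1.31 and Irf1 at −0.88 were lower in cycling T cells (edgeR). Genes outside the 31 subunits were not examined within the band of depth.

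Treated cells were then compared with untreated cells of the same model and class. The core subunits had small ratios. In T11-Apobec the median log2 ratio of treated over untreated CPM over the 31 core subunits was −0.07 in tumour cells, −0.12 in T cells, 0.11 in B cells and 0.00 in myeloid cells. Over all features with at least 10 UMIs it was −0.05, −0.08, −0.06 and −0.08. At a difference of 1.5-fold, 0 of 31 core subunits were higher and 0 lower in tumour cells, against 11.9% and 11% of all features. The counts were also 0 and 0 in T cells (12.8% and 20%) and in myeloid cells (10.6% and 13.5%). In B cells 5 were higher and 1 lower (24.6% and 27.9%), from 93 untreated cells with 393 core UMIs. The shares cover all features with at least 10 UMIs over both sums. Psmd13, the core subunit with the fewest UMIs in tumour cells, had 786 in treated and 4132 in untreated cells. Shares over features of like depth were not taken. The single ratios in T11-Apobec tumour cells ran from −0.42 for Psmd6, with 53.7 CPM in treated and 71.9 CPM in untreated cells, to 0.26 for Psma5, with 536 and 448 CPM. The 20S median was 0.03 and the 19S median −0.14. In T11-Apobec myeloid cells they ran from −0.35 for Psmc1 to 0.45 for Psma4.

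In KPB25Luv the core median was 0.00 in tumour cells, 0.16 in T cells, 0.13 in B cells and −0.08 in myeloid cells, beside 0.25, 0.05, 0.00 and −0.19 over all features. With a median-of-ratios size factor the myeloid median was 0.13. Past 1.5-fold lay 1 higher, Psmd1, and 1 lower, Psma4, in tumour cells (34% and 14% of all features), 0 and 0 in T cells (15.8% and 17.1%), 3 higher and 0 lower in B cells (20.7% and 20.5%), and 1 higher, Psma5, and 0 lower in myeloid cells (16.6% and 31.8%). The treated and untreated tumour sums held 1725826 and 69429717 UMIs. With sums this unequal, the 0.5 added counts can lift a feature with few UMIs above 0 when treated cells have none. The 0.25 and 34% over all features therefore cannot be set against the core in tumour cells. Psmd1 held 153 CPM in treated tumour cells, of which there were 58, and 93.2 CPM in untreated ones. Psma4 held 353 CPM in treated and 531 CPM in untreated ones. In KPB25Luv T cells the 19S median was 0.25 and the 20S median 0.02, and with cells thinned to 1000 UMIs the core median was −0.029. The lowest were Psma7, at 481 CPM in treated and 650 CPM in untreated T cells, and Psmb4, at 219 and 291 CPM. Epithelial markers summed to 14.1 CPM in treated and 482 CPM in untreated KPB25Luv T cells, and Psma7 held 2521 CPM in untreated KPB25Luv tumour cells. The part of free tumour RNA in these ratios was not tested. Cycling T cells made up 20.6% of treated and 31.9% of untreated KPB25Luv T cells, and 21.8% and 13.4% of those of T11-Apobec. The part of these shares in the T cell ratios of either model was not tested.

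**Figure D4:**
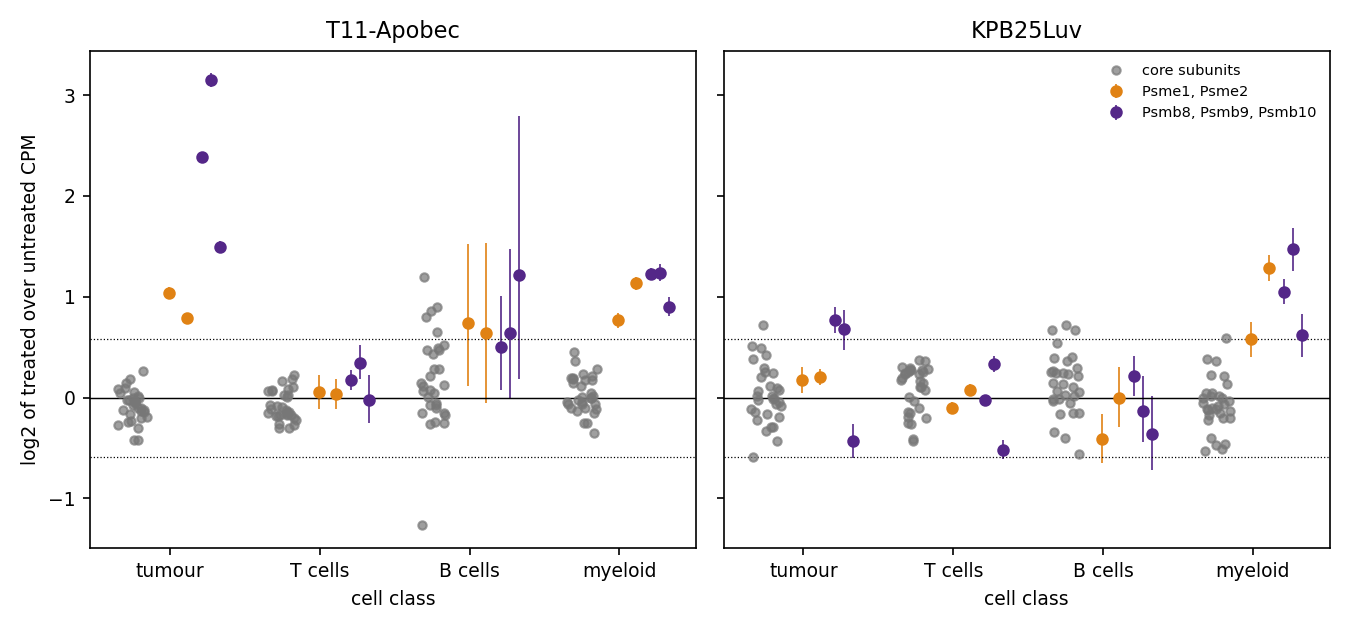
The log2 ratio of treated over untreated CPM (vertical axis) in tumour, T, B and myeloid cells (horizontal axis) of each model (panels), with grey points for core subunits with at least 10 UMIs, colours for PA28 and immunoproteasome genes with exact 95% counting intervals, and dotted lines at 1.5-fold. Core subunits gather near 0, while Psme1 and Psme2 lie at 1.04 and 0.79 in T11-Apobec tumour cells and at 0.58 and 1.29 in KPB25Luv myeloid cells.

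Psme1 and Psme2 lay above the core median in T11-Apobec tumour, T, B and myeloid cells and in KPB25Luv tumour and myeloid cells. In KPB25Luv T and B cells both lay below it. In T11-Apobec B cells the log2 ratio was 0.74 for Psme1 (95% counting interval 0.12 to 1.52) and 0.64 for Psme2 (−0.06 to 1.54). The untreated B cells gave 19 and 15 UMIs of these genes. In T11-Apobec tumour cells Psme1 held 195 CPM in treated and 95.2 CPM in untreated cells, a log2 ratio of 1.04 (95% counting interval 0.98 to 1.09). Psme2 held 275 CPM in treated and 159 CPM in untreated cells, a ratio of 0.79 (0.74 to 0.83). In T11-Apobec myeloid cells Psme1 had 0.77 (0.69 to 0.84) and Psme2 1.13 (1.06 to 1.20). The 6 T cell markers summed to 73.2 CPM in treated and 8.23 CPM in untreated T11-Apobec myeloid cells, and the 10 markers of T11-Apobec tumour cells to 45.4 and 162 CPM. In KPB25Luv myeloid cells Psme2 held 1005 CPM in treated and 413 CPM in untreated cells, a ratio of 1.29 (1.16 to 1.41), and Psme1 497 and 334 CPM, a ratio of 0.58 (0.40 to 0.75). In these cells the cycling markers summed to 82.6 CPM in treated and 511 CPM in untreated ones, with 7 of 7 lower past 1.5-fold and a median log2 ratio of −2.29. Epithelial markers summed to 29.6 CPM in treated KPB25Luv myeloid cells, with 5 of 10 seen, and to 539 CPM in untreated ones, with 9 of 10 seen. The part of these other transcripts in the myeloid ratios was not tested. In KPB25Luv tumour cells the ratios were smaller, 0.18 for Psme1 and 0.21 for Psme2, and the median over all features was 0.25. That median is no fair baseline for these genes, because the treated sum held 1725826 UMIs and the untreated sum 69429717. With sums this unequal, the 0.5 added counts can lift a feature with few UMIs above 0 when treated cells have none. With a median-of-ratios size factor Psme1 and Psme2 were both below 0 and the core median was −0.24. Whether that factor shares this limit was not tested. In T11-Apobec T cells Psme1 had 0.05 and Psme2 0.03, and in KPB25Luv T cells −0.11 and 0.07. In T11-Apobec tumour cells the other activators and the inhibitor lay closer to the core median, with Psme3 at −0.09, Psme4 at −0.32 and Psmf1 at −0.10. This did not hold in each class. Psme4 had 0.80 (−0.02 to 1.49) in KPB25Luv myeloid cells, from 19 UMIs in treated cells. In T11-Apobec B cells Psme4 had −0.90 and Psmf1 1.81, from 3 and 0 UMIs in untreated cells. Psme3 exceeded 1.5-fold in KPB25Luv T cells, at 80.9 CPM in treated and 53.9 CPM in untreated cells, and in KPB25Luv B cells.

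The immunoproteasome genes were higher in the treated T11-Apobec tumour and B cells and in the myeloid cells of both models. In T11-Apobec B cells Psmb8 had a log2 ratio of 0.51, Psmb9 0.64 and Psmb10 1.22, from 42, 17 and 6 UMIs in untreated cells. In KPB25Luv B cells they had 0.21, −0.13 and −0.37. Psmb9 had a log2 ratio of 3.15 in T11-Apobec tumour cells, with 307 CPM in treated and 34.6 CPM in untreated cells, and Psmb8 2.38 and Psmb10 1.5. In KPB25Luv tumour cells Psmb8 had 0.77, Psmb9 0.68 and Psmb10 −0.43. The interferon-gamma response genes Gbp2, a guanylate-binding protein, and Tap1, the peptide transporter of antigen presentation, had ratios of 3.15 and 3.04 in T11-Apobec tumour cells and 2.78 and 2.76 in KPB25Luv tumour cells. In myeloid cells Gbp2 had 2.95 in T11-Apobec and 2.87 in KPB25Luv, and Tap1 1.64 and 2.16. The transcription factor Irf1 had 1.45 in T11-Apobec and 0.61 in KPB25Luv tumour cells. Stress and dissociation genes also differed: 6 of 7 were lower past 1.5-fold in treated T11-Apobec tumour, T and myeloid cells, and 6 of 7 higher in treated KPB25Luv tumour cells. The pan-leukocyte gene Ptprc stood at 6.69 CPM in treated and 1.78 CPM in untreated T11-Apobec tumour cells, and 6 of 6 T cell markers summed to 61.2 and 4.93 CPM there. In T cells of the treated T11-Apobec library these were 449 CPM and 5220 CPM. The part of leukocyte RNA in the tumour cell ratios was not tested.

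The catalytic makeup was read as the share of Psmb8, Psmb9 and Psmb10 in the UMIs of the 6 catalytic genes. T11-Apobec tumour cells had 62.1% in treated and 24.2% in untreated cells, while the summed level of Psmb5, Psmb6 and Psmb7 was 837 CPM in treated and 868 CPM in untreated cells. KPB25Luv tumour cells had 33.1% and 26.9%. Myeloid cells had 70.0% in treated and 51.6% in untreated T11-Apobec, and 67.4% and 49.4% in KPB25Luv. T cells of T11-Apobec had 75.3% with therapy and 69.7% without it, and those of KPB25Luv 67.7% and 66.4%. Plasma cells had 61.5% in treated T11-Apobec and 52.6% in treated KPB25Luv, against 68.8% and 66.9% in B cells of the same libraries.

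**Figure D5:**
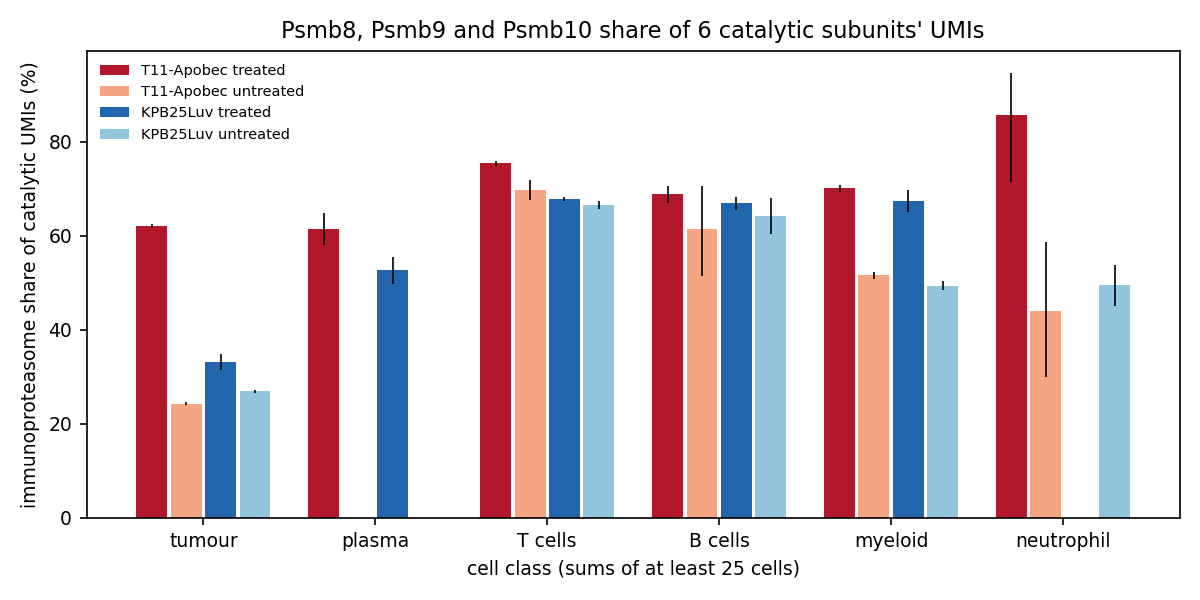
Share of Psmb8, Psmb9 and Psmb10 in the summed UMIs of the 6 catalytic subunit genes (vertical axis, %) by cell class (horizontal axis) and library (colours), with exact binomial 95% intervals that cover counting error only. Treated T11-Apobec tumour cells stand at 62.1% and untreated ones at 24.2%, while T cells lie between 66.4% and 75.3% in each library.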

How the data were processed

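The deposited values were raw UMI counts per gene and cell barcode, as Cell Ranger 3.0.2 output per the file headers, aligned to mm10 per the submitters' processing notes. Cells with at least 200 genes and at most 10% mitochondrial UMIs were kept. A class needed 3 or 4 detected markers of its list and a floor of 3 or 10 UMIs and of 10 to 100 UMIs per 10000, and cells meeting 2 or more classes were left out. These floors were set after the marker distributions were seen. UMIs were summed per library and class. Sums of at least 50 cells entered edgeR 4.0.16 (R 4.3.3; TMM, library as a block, quasi-likelihood test, Benjamini-Hochberg at 0.05), which was tested on simulated data; DESeq2 1.42.0 was an alternative. Tumour, myeloid and B cells share the same T cells as their comparison. Treated over untreated ratios used 0.5 added counts, members with at least 10 UMIs and exact conditional 95% intervals. No labels say that cells of a library came from separate animals, so p-values do not measure a spread between animals. They rest on the scatter left after class and library are fitted, pooled over the classes of a fit. The 4 libraries differ in model and therapy, so that scatter also holds differences between these groups. Genes named were Psmb5, Psmb6, Psmb7, the activators, Psmf1, the immunoproteasome genes, the 3 highest and 3 lowest core subunits per comparison with at least 50 UMIs, members under 10 UMIs and the 10 genes most like the core; others, and the pathway genes that passed a test, were chosen after their values were seen. Endothelial, pericyte, fibroblast, NK, mast, red and plasmacytoid dendritic cell lists served only to leave cells out or as checks. Some genes of the pathway lists, and results that rest on them, are not reported here. Members and lists were chosen with earlier results of these data known. Tables were made with Python 3.11.15, numpy 2.4.6, scipy 1.17.1 and pandas 2.3.3, and figures with matplotlib 3.10.9.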

Additional observations from a re-analysis of the deposited data

Results flagged for a closer look

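Psme1 went in opposite directions in the B cells of the 2 models. The log2 ratio of treated over untreated CPM was 0.74 (95% counting interval 0.12 to 1.52) in T11-Apobec, with 354 CPM in treated and 207 CPM in untreated B cells, the untreated value resting on 19 UMIs in 93 cells. In KPB25Luv it was −0.41 (−0.64 to −0.16), with 359 CPM in treated and 476 CPM in untreated B cells. The difference between the models was not tested, since each group is 1 library. The epithelial markers summed to 20.3 CPM in treated and 572 CPM in untreated KPB25Luv B cells, and the myeloid markers to 38.1 and 544 CPM. Their part in the ratio was not tested. With cells thinned to 1000 UMIs the KPB25Luv ratio was −0.02.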

How the results depend on the processing

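Of the counts of core subunits called between classes, 100 stayed within 1.5 times the reported count under an alternative, 15 moved above it and 17 below it. Tumour over T cells: 1 lower without immunoglobulin genes and with sums of at least 25 cells, 2 lower for T11-Apobec tumour cells alone and 1 for KPB25Luv alone. Leaving out 1 library gave 7 to 11 higher and 0 to 1 lower, with 7 and 1 without untreated KPB25Luv. Plasma over B cells: 7 higher without the 5% of cells with the most UMIs, 1 without immunoglobulin genes, 8 with RLE size factors, 0 with plain totals, 1 without a filter on low sums, 15 with sums of at least 25 cells and 14 with DESeq2. Leaving out 1 library gave 0 to 1 higher, with 0 without treated T11-Apobec and 1 without untreated T11-Apobec or untreated KPB25Luv; treated KPB25Luv cannot be left out, and doubled marker thresholds left no plasma sum of 50 cells. Myeloid over T cells: 0 higher with doubled thresholds, 2 without the deepest 5%, 3 with RLE, 7 with DESeq2, and 0 higher with 2 lower with plain totals, where the median turned to −0.0087; leaving out 1 library gave 0 to 1, with 0 without either T11-Apobec library. B over T cells: 8 lower without the deepest 5%, 1 without the filter and 8 with DESeq2; leaving out 1 library gave 0 to 4. Cycling over other T cells: 3 higher among T cells of 3000 to 8000 UMIs, and 17 to 28 leaving out 1 library, with 17 without treated KPB25Luv. The cause of these moves was not tested. For a core median, the interval ran from the median lower to the median upper bound of the single-gene counting intervals. It is not an interval of the median itself, and it is wide in shallow classes, at −0.69 to 1.42 in T11-Apobec B cells. Of the treated over untreated core medians, 51 stayed within it and 4 left it. T11-Apobec tumour cells moved to −0.000515 with doubled thresholds and −0.15 without the deepest 5%. KPB25Luv tumour cells moved to −0.24 with a median-of-ratios size factor, and KPB25Luv T cells to −0.029 with cells thinned to 1000 UMIs. Within the interval the sign turned in KPB25Luv myeloid cells, to 0.13 with a median-of-ratios size factor, in KPB25Luv B cells, to −0.12 without the deepest 5% and −0.15 with thinned cells, in KPB25Luv tumour cells, to 0.03 with thinned cells, and in T11-Apobec myeloid cells, whose median was near 0. Of the recomputed Psme1 and Psme2 ratios, 96 stayed within their interval and 14 left it. In T11-Apobec tumour cells Psme2 was 0.85 with doubled thresholds, 0.62 with thinned cells and 0.84 with median-of-ratios; in T11-Apobec myeloid cells Psme1 was 0.63 thinned and 0.85 with median-of-ratios, and Psme2 1.21 with median-of-ratios. In KPB25Luv myeloid cells Psme1 was 0.85 thinned and 0.79 with median-of-ratios, where Psme2 was 1.5. In KPB25Luv tumour cells both turned below 0 with median-of-ratios, Psme1 to −0.06 and Psme2 to −0.03. With thinned cells, Psme1 turned to 0.04 and Psme2 was 0.13 in KPB25Luv T cells, and Psme1 was −0.02 in KPB25Luv B cells. Psme1 in T11-Apobec T cells turned to −0.10 with thinned cells, within its interval. No paired analysis was possible because the groups share only replicate number 1; the comparisons of classes hold the library as a block as reported, and a fit of therapy over both models was not run. Depth limits T11-Apobec B cells and neutrophils: 93 untreated B cells gave 393 core UMIs, and 33 treated and 131 untreated neutrophils gave 74 and 238.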
